A study of Mus musculus with 3 samples.

Results

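In all, 10 genes for adhesion molecules of the immunoglobulin superfamily were examined in SB28, a transplantable mouse glioblastoma model line of C57BL/6 background that came from a tumour raised in mouse brain with transposon-delivered oncogenes. The members, Icam1, Vcam1, Ncam1, Ncam2, L1cam, Chl1, Nrcam, Nfasc, Alcam and Mcam, were chosen by name, and all 10 had a line among the 24421 genes of the count tables. The data are RNA-seq counts per gene from 3 libraries of 1 group, labelled replicates 1, 2 and 3, each made from total RNA of the line. The labels give no control, treatment, passage or culture condition. They also do not say whether the replicates were grown separately, so every SD and p-value below covers these 3 samples alone and their spread may be technical.

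Adhesion molecules of this kind carry extracellular immunoglobulin domains that bind a partner on another cell or in the matrix. ICAM-1 and VCAM-1 are the classic endothelial receptors for leukocyte integrins and are induced by inflammatory cytokines through NF-kappaB. NCAM1 and NCAM2 hold neural cells together by binding a like molecule on the next cell, while the L1 family (L1CAM, CHL1, NrCAM and neurofascin) guides axons and ties the membrane to the spectrin skeleton through ankyrins. ALCAM (CD166) binds itself and the lymphocyte receptor CD6, and MCAM (CD146) marks endothelial cells, pericytes and melanoma.

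The libraries held 36019009, 28990128 and 32632858 counts assigned to genes in replicates 1, 2 and 3. Replicate 3 stood apart from the others. A chi-square test of library against library, with Benjamini-Hochberg adjustment over the genes tested (mean count of 10 or more), called 2.01% of 12746 genes between replicates 1 and 2, 64.0% of 12802 between replicates 1 and 3 and 62.9% of 12685 between replicates 2 and 3. Reads outside annotated genes made up 6.54% of all reads listed for replicate 3, against 5.19% and 5.27% in replicates 1 and 2, and the part of this in the members' values was not tested. Marker lists of neural cells were mixed. Of 8 astrocyte markers 4 were detected, led by Gja1 (479 ± 56.4 CPM, counts per 1000000 counts assigned to genes; SD, n = 3) and Glul (55.97 ± 6.997 CPM), while Gfap and Aqp4 had 0 counts. Of 10 oligodendrocyte lineage markers 2 were detected, Pdgfra (52.4 ± 8.88 CPM) and Cnp (19.2 ± 3.62 CPM), while Olig1, Olig2 and Mag had 0 counts. Of 10 neuron markers 2 were detected, Tubb3 (19.7 ± 2.16 CPM) and Map2 (4.18 ± 1.31 CPM), while Rbfox3 had 0 counts. Over all genes 46.6% were detected, and of protein-coding genes 54.1%.

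The family was divided into 4 members with clear transcript levels and 6 that did not reach 1 CPM in every library. Alcam, Ncam1, Vcam1 and Mcam reached 1 CPM or more in every library, the level called detected here, which 46.6% of all genes and 54.1% of protein-coding genes also reached. Nrcam was split between libraries, and Icam1, Ncam2, L1cam, Chl1 and Nfasc lay below 1 CPM in all 3. Together the 10 genes held 797, 801 and 758 CPM in replicates 1, 2 and 3, and the 6 genes not detected held 0.178%, 0.168% and 0.340% of those counts. The median of the members was 0.106 on the scale of log2(CPM per kilobase of exon + 1), against 0.295 over all genes with a known length.

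**Figure D1:**
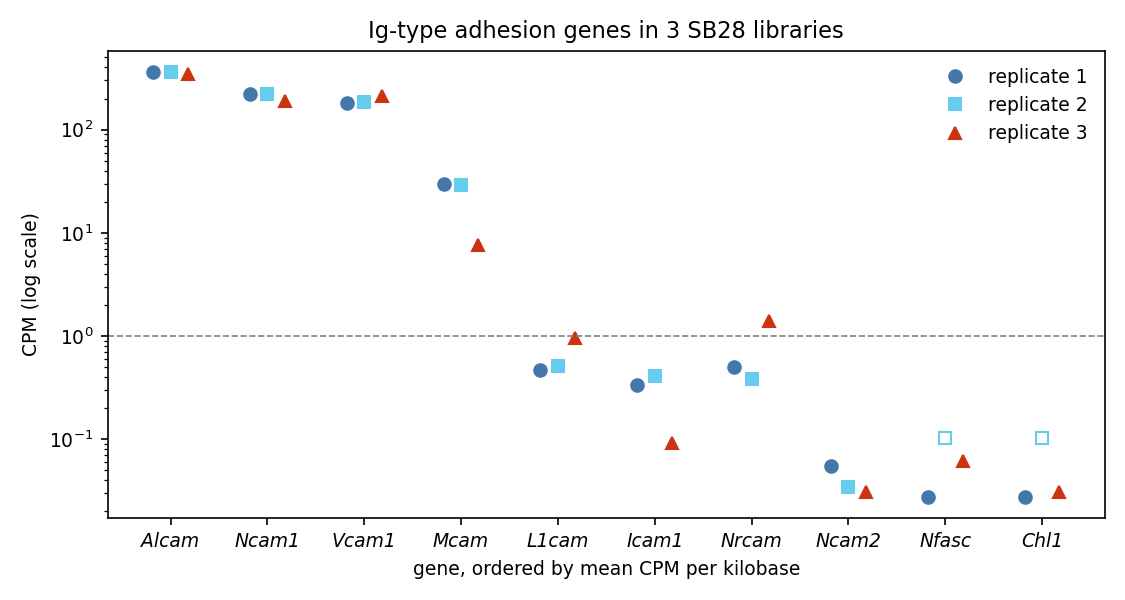
CPM of each member in each library on a log axis, with genes in order of mean CPM per kilobase. The dashed line marks 1 CPM, and open symbols mark 0 counts, drawn at the limit of 3 counts. Alcam, Ncam1, Vcam1 and Mcam lie above the line in every library, and Nrcam does so in replicate 3 only.

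Alcam, whose product joins like cells and serves as the ligand of CD6, was the most abundant member. It had 361, 362 and 346 CPM in replicates 1, 2 and 3, or 356 ± 9.005 CPM (SD, n = 3), from 34785 counts in all. That level lay above 96.01% of detected genes by CPM, and above 91.96% by CPM per kilobase of exon. In the 3 libraries 45.3%, 45.2% and 45.7% of the family's counts were from Alcam. The 3 values were close together, with the highest 1.04-fold above the lowest, a ratio lower than in all but 6.09% of detected genes. Alcam lies on chromosome 16 at 52248996 to 52454074 on the minus strand (GRCm38, as for all positions here).

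Ncam1, encoding the main homophilic adhesion molecule of neural cells, followed with 222, 223 and 192 CPM, or 212 ± 17.9 CPM (SD, n = 3). It lies on chromosome 9 at 49502136 to 49798925, minus strand. Counts per gene do not separate its transmembrane isoforms from the form anchored by a lipid tail. An antisense gene, Gm11149, covers 417 bases (4.81%) of its exons, and with no strand setting stated the reads of both cannot be told apart there. Replicate 3 was lowest, and the highest library stood 1.15-fold above it.

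Vcam1, the receptor for integrin alpha4 beta1, had 182, 186 and 209.9 CPM, or 193 ± 15.03 CPM (SD, n = 3). It lay above 90.6% of detected genes by CPM and above 78.5% by CPM per kilobase of exon. It lies on chromosome 3 at 116109949 to 116129688, minus strand. Its highest library was replicate 3, at 1.16-fold the lowest.

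Mcam had 29.96, 29.2 and 7.63 CPM in replicates 1, 2 and 3, from 1079, 847 and 249 counts, or 22.3 ± 12.7 CPM (SD, n = 3). Replicates 1 and 2 did not differ beyond counting noise (chi-square, adjusted p = 0.88) and replicate 3 lay far below both. Mcam lies on chromosome 9 at 44134469 to 44142727, plus strand. It held 3.76%, 3.65% and 1.01% of the family's counts.

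Icam1, the receptor for the leukocyte integrins LFA-1 and Mac-1, had 12, 12 and 3 counts in replicates 1, 2 and 3, which is 0.333, 0.414 and 0.0919 CPM. Its pooled counts give an exact 95% Poisson interval of 0.182 to 0.402 CPM, which covers counting error only, as do all intervals here. The gene lies on chromosome 9 at 21015985 to 21028817, plus strand. The antisense gene Gm47079 covers 511 bases (11.7%) of its exons, so even these few counts may not all be from Icam1.

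Ncam2, the relative of Ncam1 best known from olfactory axons, had 2, 1 and 1 counts and a pooled interval of 0.0112 to 0.105 CPM. Its gene spans 426132 bases of chromosome 16, at 81200697 to 81626828 on the plus strand. All 3 libraries were at the limit of detection.

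The 4 genes of the L1 family held 37, 26 and 80 counts together in replicates 1, 2 and 3, or 1.03, 0.897 and 2.45 CPM. L1cam, on the X chromosome at 73853778 to 73896105 (minus strand), had 17, 15 and 31 counts, or 0.472, 0.517 and 0.950 CPM. The protein-coding gene Arhgap4 shares 100 bases (1.36%) of the L1cam exons on the same strand. Nrcam, on chromosome 12 at 44328885 to 44601964 (plus strand), had 18, 11 and 46 counts, or 0.4997, 0.379 and 1.41 CPM. In both genes replicate 3 was the highest library, and only Nrcam passed 1 CPM there. Nfasc, encoding neurofascin of the axon initial segment and node, had 1, 0 and 2 counts, with a pooled interval of 0.00634 to 0.0898 CPM. Chl1, the close homologue of L1, had 1, 0 and 1 counts, with a pooled interval of 0.00248 to 0.0740 CPM. In replicate 2, where both stood at 0, a limit of 3 counts allows up to 0.1035 CPM. Nfasc lies on chromosome 1 at 132564690 to 132741797 (minus strand) and Chl1 on chromosome 6 at 103510586 to 103750211 (plus strand).

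The 250 bases before the RefSeq start (GRCm38.p6) are shown for 3 members that were not detected and whose windows touch no GENCODE exon, to set their upstream sequence beside their low counts. Of the 10 members, 8 had a promoter entry in the RefSeq table. Vcam1 and Ncam1 had none, so no motif was searched for in them and Icam1 cannot be set against Vcam1 here. Capitals mark GGNNNTTCC, an NF-kappaB-like motif, in Icam1 and the GC box GGGCGG in Ncam2 and Nrcam, each searched on both strands.
Icam1, chr9:21015690-21015939 (+): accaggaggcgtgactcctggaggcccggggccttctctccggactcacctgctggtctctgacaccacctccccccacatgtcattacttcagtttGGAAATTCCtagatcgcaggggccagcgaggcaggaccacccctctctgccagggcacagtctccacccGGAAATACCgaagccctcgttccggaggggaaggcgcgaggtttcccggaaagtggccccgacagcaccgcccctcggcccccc
Ncam2, chr16:81200447-81200696 (+): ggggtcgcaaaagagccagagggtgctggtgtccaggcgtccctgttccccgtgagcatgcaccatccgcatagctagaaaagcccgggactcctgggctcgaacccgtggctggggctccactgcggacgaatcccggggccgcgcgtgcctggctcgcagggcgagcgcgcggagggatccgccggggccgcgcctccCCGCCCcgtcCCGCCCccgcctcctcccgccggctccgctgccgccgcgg
Nrcam, chr12:44328635-44328884 (+): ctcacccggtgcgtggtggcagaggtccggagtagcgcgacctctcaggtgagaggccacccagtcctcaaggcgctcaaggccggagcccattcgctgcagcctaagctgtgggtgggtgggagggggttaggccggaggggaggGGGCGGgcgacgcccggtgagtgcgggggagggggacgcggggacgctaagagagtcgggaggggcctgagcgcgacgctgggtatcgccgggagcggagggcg
The Icam1 window held 2 matches of GGNNNTTCC, at 153 to 145 and at 84 to 76 bases before the RefSeq start, which itself lies 45 bases before the GENCODE start. That motif was found in 15.7% of 32851 promoter windows of the same length, and in no window of the other members with an entry. GGGCGG was found in 32.7% of windows, with 2 matches in Ncam2, 1 in Nrcam, 1 in Icam1, 2 in Alcam and 5 in Mcam. Each of the 2 windows of L1cam held 1 match. The 2 windows of Nfasc held 1 and 0, and the Chl1 window held 0. None of the matches in the printed windows overlapped another, and TATAAA, present in 12.4% of windows, was not among the letters of any member's window. GC content was 65.2% in Icam1, 75.2% in Ncam2 and 72.4% in Nrcam, against 69.2% in the detected Alcam and 73.6% in the detected Mcam and a median of 52.4% over all windows. CpG dinucleotides numbered 15, 32 and 25 in the 3 printed windows, 22 in Alcam and 25 in Mcam, with a median of 6 over all windows. The other undetected members with an entry had 52.4% GC and 8 CpG in Chl1, 52.0% and 50.4% GC and 4 and 1 CpG in the 2 windows of Nfasc, and 69.6% and 63.2% GC and 20 and 12 CpG in the 2 windows of L1cam. Neither these windows nor those of Alcam and Mcam lie wholly before the GENCODE start. Counted downstream from the RefSeq start, it lies at −34471 and −98939 bases in Nfasc and −15315 and −15271 in L1cam. It lies at −290 in Chl1, −993 in Alcam and −189 in Mcam. Some of these windows overlap GENCODE exons, so they are not like the 3 printed ones.

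Levels of different genes were compared per kilobase of union exon length within each library. Alcam had 50.03 ± 1.27, Ncam1 24.5 ± 2.065, Vcam1 21.7 ± 1.69 and Mcam 6.65 ± 3.79 CPM per kilobase (SD, n = 3), and all 6 other members lay under 0.1 CPM per kilobase on average. A difference between neighbours in this order was called larger than the spread when the log2 ratio, taken with 0.5 counts added, had the same sign in all 3 libraries and a mean above 2 SD. By this rule 3 of 9 neighbouring steps were called. Alcam lay 2.05-fold above Ncam1 (range over libraries 1.98 to 2.197), Mcam 65.6-fold above L1cam (17.4 to 135) and Nrcam 10.2-fold above Ncam2 (6.28 to 26.3). The last of these rests on 4 counts of Ncam2, and the pooled counts give 15.9 (exact 95% interval 5.96 to 59.9). Ncam1 and Vcam1 did not differ beyond their spread, at 1.13-fold (0.934 to 1.25), and Vcam1 and Mcam did not either, at 3.85-fold (2.30 to 10.4). The order of L1cam, Icam1 and Nrcam, and that of Ncam2, Nfasc and Chl1, was likewise within the spread. Without replicate 3, 7 of the 9 steps were larger than the spread in the order given, with the SD then resting on replicates 1 and 2 alone. The remaining steps did not follow the order in those libraries. The log2 ratios of L1cam over Icam1 were −0.267 and −0.442. Nfasc and Chl1 had equal counts there, 1 and 1 in replicate 1 and 0 and 0 in replicate 2. Their log2 ratio of −0.202 in both libraries is therefore set by exon length alone and shows no difference in level. The step from Ncam2 to Nfasc rests there on 2 and 1 counts against 1 and 0.

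In all, 6 pairs of members with related roles were set against each other in the same way. All 6 ratios exceeded the spread of the libraries, but where Ncam2, Chl1 or Nfasc is the rarer gene, at 0 to 2 counts a library, the fitted ratio and its SD depend on the 0.5 counts added, and the pooled counts with their intervals are the measure. The exact two-sided sign-flip permutation test gave p = 0.25 for each, the smallest p that 3 libraries allow. Icam1 lay 375-fold below Vcam1, with log2 ratios of −8.01, −7.73 and −9.91 in replicates 1, 2 and 3. Replicate 3 held only 3 counts of Icam1, and without it the log2 ratio was −7.87, against −8.55 with all 3 libraries. The pooled counts put Ncam1 over Ncam2 at a ratio per base of 6772 (exact 95% interval 2644 to 24860), and the fitted log2 ratio was 12.30 with 0.5 counts added and 10.47 with 5. Within the L1 family, the pooled ratio per base of Chl1 over L1cam was 0.0190 (0.00225 to 0.0714), with fitted log2 ratios of −5.04 and −2.90 at 0.5 and 5 counts added. For Nrcam over Nfasc it was 26.5 (8.72 to 131), with fitted log2 ratios of 4.20 and 2.24. Ncam1 lay 285-fold above L1cam (range 168 to 388). Alcam lay 8.89-fold above Mcam (5.67 to 21.3). Without replicate 3 that ratio was 2.52 on the log2 scale, against 3.15 with all 3 libraries.

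**Figure D2:**
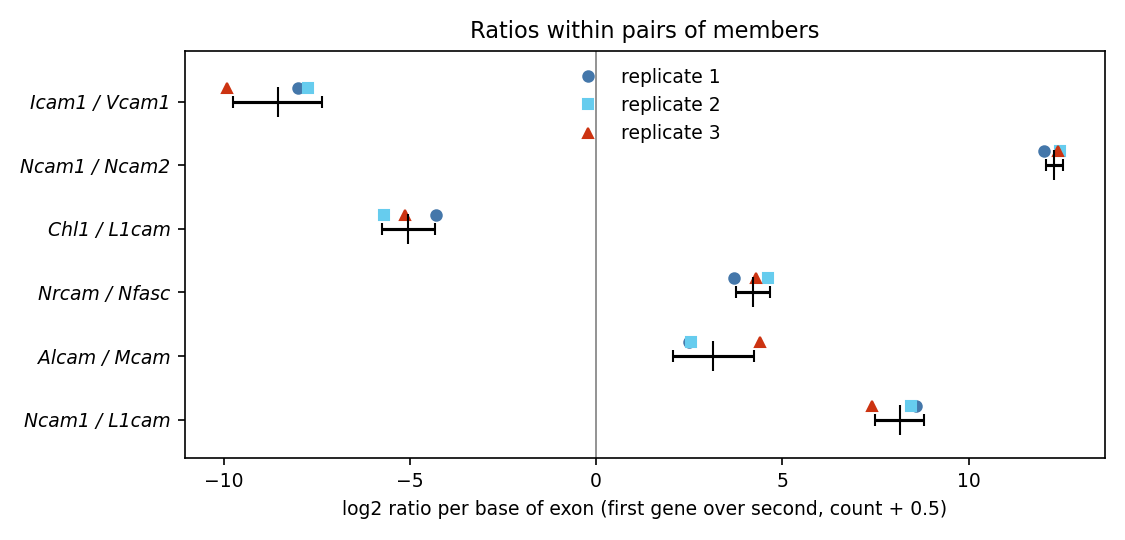
Log2 ratio per base of exon, first gene over second, for 6 pairs of members. Symbols are single libraries, and the black tick and bar below them are the mean ± SD of the 3 libraries. The values include 0.5 added counts, which set the position of pairs with Ncam2, Chl1 or Nfasc. No pair crosses 0, and for Alcam over Mcam replicate 3 (4.41) lies apart from replicates 1 and 2 (2.50 and 2.54).

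Differences between the libraries were tested for each gene with a chi-square test of its 3 counts after trimmed-mean (TMM) scaling, leaving out genes whose mean count was under 10. This test sets libraries against pure counting noise and says nothing of a condition. All 6 members that could be tested were called at an adjusted p of 0.05, where 65.7% of 12737 genes were called. Of the 6, Alcam, Ncam1 and Mcam were lowest in replicate 3, and Vcam1, L1cam and Nrcam were highest there; over all tested genes 31.5% were called and lowest in replicate 3 and 33.1% were called and highest in it. Icam1, Ncam2, Chl1 and Nfasc had too few counts for the test. Between replicates 1 and 2 alone, 0 of 7 members tested were called by the chi-square test, 0 had an unadjusted p under 0.05, and the smallest adjusted p was 0.795.

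Mcam differed most among the detected members. Its TMM-scaled level was 3.91-fold higher in the highest library than in the lowest, against a median of 1.21-fold over detected genes (chi-square, adjusted p = 8.68e-101). Only a small share of detected genes varied as much, since Mcam stood above 99.7% of them. By contrast, the ratio was 1.15-fold for Ncam1 (adjusted p = 1.46e-19), 1.16-fold for Vcam1 (adjusted p = 2.14e-18) and 1.04-fold for Alcam (adjusted p = 0.00791) by the chi-square test, at totals of 20714, 18806 and 34785 counts. Nrcam was 3.74-fold higher in its highest library (adjusted p = 3.75e-06) and L1cam 2.02-fold (adjusted p = 0.0414, which became 0.0529 when genes of any count entered the test and 0.0721 without replicate 1). Icam1 entered only when genes of any count were tested, and its adjusted p was then 0.0789. Without replicate 3, 0 members were called, where 2.01% of all genes tested were.

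**Figure D3:**
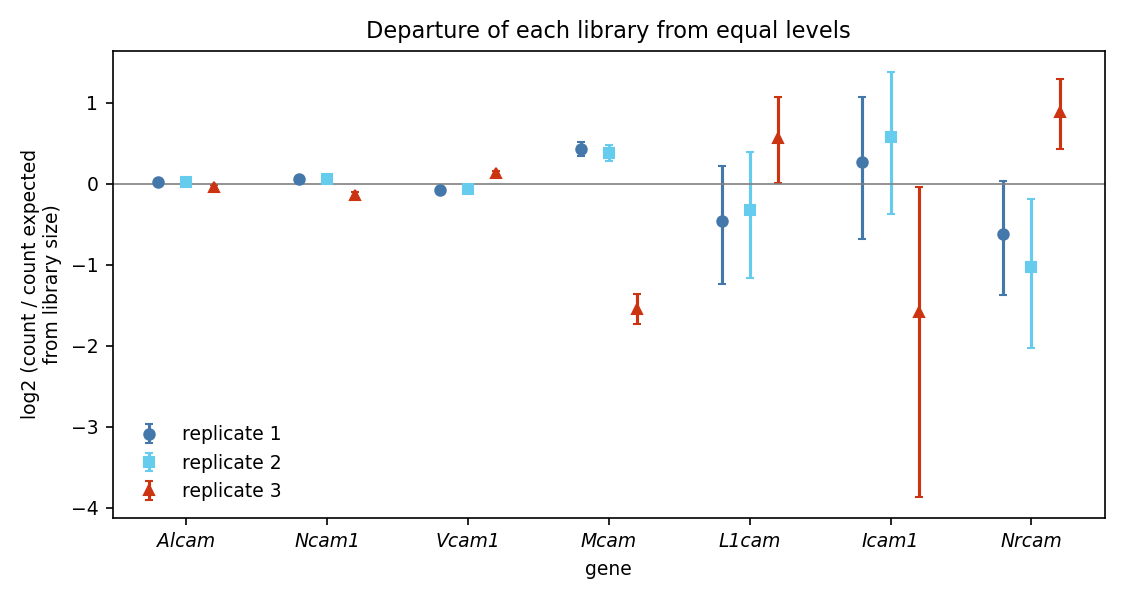
Log2 of each library's count over the count expected from library size alone, for the 6 members tested and Icam1. Bars are exact 95% Poisson intervals of single counts (counting error only). Replicate 3 of Mcam lies at −1.54 with a narrow bar, while the bars of L1cam, Icam1 and Nrcam are wide.

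Markers of vessel cells were set beside Mcam, and their summed levels were lowest in replicate 3, as were those of every other partner and marker list here. Of 12 endothelial markers 5 were detected, where 46.6% of all genes were. The summed level of the list was 503, 496 and 379 CPM in replicates 1, 2 and 3. Most of it was from the cadherin Cdh5 (351 ± 42.2 CPM) and the receptor Flt1 (78.0 ± 33.1 CPM). The chi-square test called 4 of the 6 endothelial markers tested, near the 65.7% of all tested genes, and of the 4, 2 were lowest in replicate 3 and 2, Esam and Kdr, were highest there. The defining endothelial markers Tie1 and Cldn5 had 0 counts, and Pecam1 had 4, 2 and 0. Of 8 pericyte markers 4 were detected, with sums of 188, 188 and 156 CPM, led by Pdgfrb (120.2 ± 13.3 CPM) and Cspg4 (46.9 ± 2.10 CPM), and Kcnj8 had 0 counts. Of 5 pericyte markers tested 3 were called, a share near the 65.7% of all tested genes. Each of the 3 was lowest in replicate 3, where 31.5% of all genes tested were called and lowest. The libraries are RNA of a line, and no cell type is assigned from these markers. In bulk counts, fewer cells with a transcript and less of it per cell cannot be told apart. The part of these markers in the Mcam values was not tested.

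Of the integrins that bind Icam1 and Vcam1, 3 of 8 were detected, where 46.6% of all genes were. Itgb1, the beta1 chain shared by many integrins, had 2617, 2636 and 1987 CPM in replicates 1, 2 and 3, and Itga4, its partner for VCAM-1, had 17.7, 17.1 and 16.1 CPM. Itgb7 had 4.53, 4.38 and 13.9 CPM and was highest in replicate 3 (chi-square, adjusted p = 2.72e-55), and Itga9 was split at 1.07 ± 0.343 CPM. The beta2 chain Itgb2 (0.344 ± 0.0889 CPM) and its alpha chains Itgal, Itgam and Itgax, which form the ICAM-1 receptors of leukocytes, lay below 1 CPM in all libraries. Markers of leukocytes themselves were low too. Of 10 myeloid markers Cd68 (4.43 ± 0.964 CPM) was detected, and of the 7 lymphocyte markers counted none was, with Lck highest at 0.166 ± 0.182 CPM.

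A list of 12 factors and cytokine receptors linked to the induction of Icam1 and Vcam1 was set beside them. It is a chosen list and not the whole pathway. All 12 genes of that list were detected, where 46.6% of all genes and 54.1% of protein-coding genes were. The highest were Sp1 (153 ± 5.64 CPM), Nfkb1 (117 ± 1.40 CPM), Nfkb2 (105 ± 7.26 CPM) and Ets1 (99.2 ± 2.29 CPM). The chi-square test called 8 of the 12, a share near the 65.7% of all genes tested; each of the 8 was lowest in replicate 3, where 31.5% of all genes tested were called and lowest. Irf1, a target of interferon signalling picked after its values were seen, was among them with 38.7, 37.7 and 17.4 CPM (chi-square, adjusted p = 1.13e-63). Most of the 8 varied little. The highest library was 1.06-fold the lowest in Rela, 1.07-fold in Sp1, 1.13-fold in Nfkb2 and 1.21-fold in Il1r1 and Ifngr1. It was 1.43-fold in Relb, 1.62-fold in Ifngr2 and 2.2-fold in Irf1, against a median of 1.23-fold over all genes tested.

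Among partners of NCAM, 7 of 10 were detected, where 46.6% of all genes and 54.1% of protein-coding genes were. The 7 were led by the growth factor receptor Fgfr1 (368 ± 38.96 CPM), the prion protein gene Prnp (165 ± 13.1 CPM), the kinase Fyn (52.2 ± 14.9 CPM) and the GDNF co-receptor Gfra1 (42.02 ± 1.395 CPM). St8sia4, an enzyme that adds polysialic acid to NCAM, was picked after its values were seen and had 7.19, 8.04 and 8.73 CPM. The other such enzyme, St8sia2, lay at 0.202 ± 0.0418 CPM, and the ligand Gdnf (0.648 ± 0.147 CPM) and the proteoglycan Ncan (1 count in all) were also below detection.

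Of 20 partners of the L1 family, 15 were detected, where 46.6% of all genes and 54.1% of protein-coding genes were. No member of the family was detected. Msn, which links membrane proteins to actin, had 2198 ± 232 CPM, the guidance cue Sema3a 593 ± 13.2 CPM, the spectrin Sptbn1 579.8 ± 17.8 CPM and the clathrin adaptor Ap2m1 495 ± 54.3 CPM. Ank3, the ankyrin that anchors neurofascin in axons, was picked after its values were seen and stood at 170.4 ± 13.03 CPM. The neural partners Dcx, Cntn1, Cntn2 and Ptprz1 had 0 counts.

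Partners of ALCAM and MCAM were mostly abundant. Of them 10 of 11 were detected, where 46.6% of all genes and 54.1% of protein-coding genes were. The galectin gene Lgals1 had 2339 ± 119 CPM, the laminin chain Lamb1 732 ± 6.18 CPM and the chain Lamc1 372 ± 64.4 CPM, and Msn stands on this list too. Cd6, the lymphocyte receptor for ALCAM, had 1 count in all. Lamc1 was lowest in replicate 3 (406, 411 and 297 CPM, chi-square adjusted p = 3.77e-150). Its highest library was 1.37-fold the lowest, against 3.91-fold for Mcam. Lamb1 (adjusted p = 0.489) and Lama4 (adjusted p = 0.382) did not pass the chi-square test, and Lgals3 was highest in replicate 3. Of 10 partners tested 6 were called, near the 65.7% of all genes tested. Of the 6, 4 were lowest and 2 highest in replicate 3, where the shares over all tested genes were 31.5% and 33.1%. All 5 proteases on the list of sheddases, which cut L1, ALCAM and their relatives from the surface, were detected, led by Adam9 (452 ± 1.65 CPM), Adam10 (201 ± 21.8 CPM), Bace1 (100.6 ± 7.28 CPM) and Adam17 (80.1 ± 4.29 CPM).

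**Figure D4:**
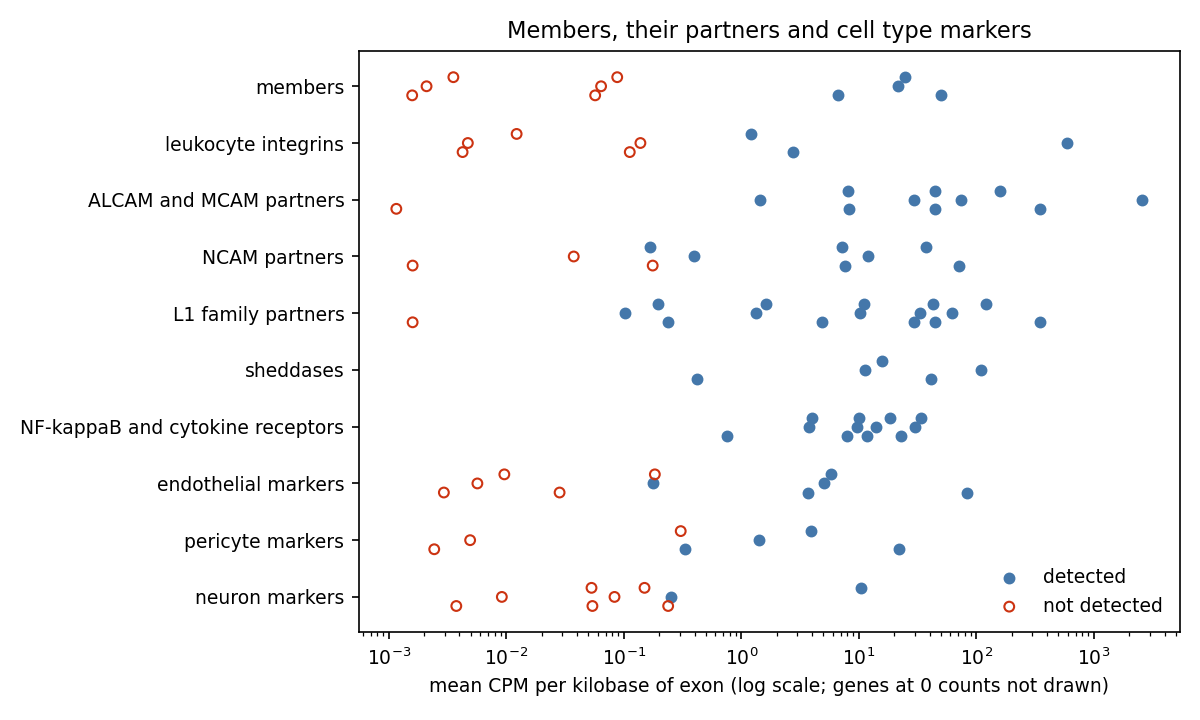
Mean CPM per kilobase of exon, on a log axis, of each gene of the members, their partner lists and 3 marker lists. Filled symbols were detected in all libraries and open symbols were not, with genes at 0 counts not drawn. The members fall into 4 filled and 6 open symbols, while all 12 genes of the NF-kappaB list and all 5 sheddases are filled. Over all genes 46.6% were detected.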

How the data were processed

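RNA of the SB28 line was sequenced in 3 libraries of 1 group, prepared with a TruSeq RNA kit per the labels' protocols. The authors deposited a table of raw read counts by gene symbol for each library, ending in 5 summary lines for unassigned reads. Bowtie2 2.2.4, HTSeq and mm10 are named in the submitters' processing notes; their roles, strand setting and annotation are not given in the sources used here. Exons, positions and lengths were taken from GENCODE M21 of GRCm38, the assembly that mm10 names; 23350 symbols matched directly, 648 through RefSeq synonyms and 423 not at all.

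CPM were computed over counts assigned to genes, without the summary lines (5.19% to 6.54% of reads outside genes, 8.86% to 9.58% not uniquely placed). The limit for a gene at 0 is 3 counts. Libraries were compared by the chi-square test with 2 degrees of freedom after TMM scaling in edgeR 4.0.16; DESeq2 1.42.0 size factors were an alternative (R 4.3.3, Python 3.11.15, scipy 1.17.1). With 1 group, no test between conditions was possible. Steps were tested on simulated data.

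The members and lists were chosen with earlier results of these data known. All 10 members are named, and of each partner list the 4 genes of highest mean CPM and the undetected ones where fewer than 6; of marker lists the 2 highest and those at 0. Nectin1 to Nectin4 were matched under older symbols, and the lymphocyte marker Trac was not analysed here. Protein sequences were not used here.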

Additional observations from a re-analysis of the deposited data

How the results depend on the processing

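The 4 detected members stayed above the threshold at 0.5 and 5 CPM, with TMM or DESeq2 scaling and without any 1 replicate. The number of members varying between libraries was 6 with total counts, with DESeq2 size factors and with replicates 1 and 2 averaged, and 5 with no filter on low counts. It ranged from 0 to 6 when 1 replicate was left out: 0 without replicate 3, where 2.01% of all genes tested were called, and 5 and 6 without replicates 1 and 2, where 62.9% and 64.0% were. The number of steps in the order of levels larger than the spread was 3 with all libraries, 4 with the longest transcript or no length, and 3 to 7 with 1 replicate left out. With the longest transcript Vcam1 ranked above Ncam1. All 6 pair ratios kept their direction and stayed larger than the spread under all 7 alternatives each, though a pseudocount of 5 counts moved Ncam1 over Ncam2 to 10.47, Chl1 over L1cam to −2.90 and Nrcam over Nfasc to 2.24 on the log2 scale. Counts of detected genes in the partner and marker lists moved by over 1.5 times in 6 of 32 settings. The order of levels, the averaging of replicates in the library test and the list thresholds were alternatives chosen after seeing the data. No paired analysis was possible because the series holds 1 group. The levels of Ncam2, Nfasc and Chl1 rest on 4, 3 and 2 counts in all, and their intervals are wide.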

Other observations

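Other adhesion genes of the immunoglobulin superfamily were also unevenly expressed. Over all genes 46.6% were detected, and of protein-coding genes 54.1%. Of 15 further genes of leukocyte, junction and basigin type, 9 were detected, led by Bsg (381 ± 17.7 CPM, SD, n = 3), a chaperone of lactate transporters, Nptn (211 ± 26.95 CPM), the virus receptor gene Cxadr (140.3 ± 19.1 CPM) and Jam3 (33.9 ± 5.28 CPM). Icam2, Icam4, Pecam1 and Bcam lay below 1 CPM in all libraries and Madcam1 had 0 counts. Thy1 was split between libraries, with 1.36, 0.793 and 0.0613 CPM in replicates 1, 2 and 3 (chi-square, adjusted p = 1.73e-08). Of 9 nectins and nectin-like genes 6 were detected, led by Cadm1 (220.5 ± 4.38 CPM), Nectin3 (149 ± 1.16 CPM), Pvr (97.4 ± 8.38 CPM) and Nectin1 (21.4 ± 1.39 CPM), while Nectin4, Cadm2 and Cadm3 were not.

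Of 11 contactin and IgLON genes, which act mostly in neurons, 1 was detected, where 46.6% of all genes were. It was Iglon5, with 33.1, 31.7 and 9.47 CPM in replicates 1, 2 and 3 (chi-square, adjusted p = 3.69e-99). Its lowest library was replicate 3, where 31.5% of all genes tested were called and lowest. Negr1 (0.941 ± 0.224 CPM) and Ntm (0.742 ± 0.531 CPM) were split between libraries, Cntn5 lay at 0.341 ± 0.0896 CPM, and Cntn1, Cntn2, Cntn3 and Cntn4 had 0 counts.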
